A study of Homo sapiens with 21 samples.

Results

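A set of 10 genes around the G1 phase of the cell cycle was followed in THP1 cells: the CIP/KIP inhibitors of cyclin-dependent kinases CDKN1A, CDKN1B and CDKN1C, the INK4 inhibitors CDKN2C and CDKN2D, the D cyclins CCND1, CCND2 and CCND3, and the p53 targets BTG2 and TIGAR. They were taken by symbol from a table of normalized counts of 20423 genes, in which 10 of 10 were found, and each was read in all 19 libraries. A normalized count is the number of reads in a gene divided by 1 size factor per library, as the authors deposited it.

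D-type cyclins bind CDK4 or CDK6, and the active kinase phosphorylates the retinoblastoma protein, which releases E2F factors and lets cells enter S phase. INK4 proteins block CDK4 and CDK6 directly, whereas CIP/KIP proteins bind cyclin-CDK complexes and inhibit CDK2 most strongly. CDKN1A (p21) and BTG2, an antiproliferative protein that recruits mRNA deadenylase, are classic p53 targets, and TIGAR is a p53-induced fructose-bisphosphatase that lowers glycolytic flux. CDKN1A and BTG2 are also switched on by other signals, for example when leukemia cells differentiate into macrophage-like cells.

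RNA-seq was done in THP1, an established human cell line from a monocytic leukemia. In the first arm IRF2BP2, a transcriptional cofactor, was targeted by either of 2 short hairpin RNAs carried in the pLKO.1 lentiviral plasmid (IRF2BP2 shRNA 1 and IRF2BP2 shRNA 2, 3 libraries each), beside an shRNA control (2 libraries). In the second arm ATF7 or JDP2, which encode basic leucine zipper factors, was edited with Lenti-CRISPRv2 constructs (2 clones of each knockout, 2 libraries a clone), beside a knockout control (2 libraries). There was also 1 wild type library. Each knockout clone grew from a single cell by dilution, so a knockout rests on 2 clones, and the labels do not say whether replicates were separate cultures. If they were not, the spread between replicates is technical alone, and pooled groups add to it only the spread between 2 hairpins or 2 clones. Both knockouts were set against the same 2 control libraries.

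Between 28650241 and 60196382 reads per library fell in genes. A departure of over 2-fold from the libraries' median was seen for over 20 percent of genes in 3 libraries (IRF2BP2 shRNA 1 replicate 3, the library labelled IRF2BP2 shRNA 2 replicate 3, and JDP2 knockout clone 1 replicate 2), and results that rest on them are given with and without them. IRF2BP2 itself had 9456, 11109.7 and 9802 normalized counts with shRNA 1 and 12587, 16649 and 25651 with shRNA 2, against 16973 and 18382 in the shRNA control. The last library of shRNA 2 thus held more IRF2BP2 message than both controls and goes against its label. Replicate 2 of shRNA 2, at 16649, lay just below the lower control. With the last library included, shRNA 2 had a mean of 18295.5, against 17677.44 in the shRNA control. A lower IRF2BP2 message is thus not shown for shRNA 2 as a group. With all controls, the authors' deposited table gave a log2 change of -0.32 for the pooled hairpins (SE 0.23, DESeq2 adjusted p = 0.372). Below, the word knockdown follows the labels. ATF7 had 363 to 645 normalized counts in its knockouts against 299.9 and 537 in the knockout control, and JDP2 had 3158 to 5693 against 5085 and 3438; gene editing need not lower a message, and the knockouts are not checked by it. Myeloid markers were present in every library, with SPI1 between 5183 and 45680.3 normalized counts. Of the markers of other cell types, the 3 erythroid markers summed to at most 17.4 and the 3 epithelial markers to at most 128, and T-cell CD3E and B-cell MS4A1 stayed at or below 13.9, while NKG7, which carries the lymphoid sum, ranged from 5161 to 29304.

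In the 5 control libraries CDKN1B was the most abundant of the 10 messages per length, at 1854 ± 384 normalized counts per kb of exon (SD, n = 5). CDKN2C at 1339 ± 224 and CCND3 at 1322 ± 352 per kb came next and did not differ from each other beyond their spread. CDKN2D followed at 599 ± 143 per kb. CDKN1A at 97.3 ± 36.6 and BTG2 at 85.2 ± 14.7 per kb did not differ beyond their spread, and neither did CCND2 at 64.9 ± 17.2 and CDKN1C at 61.7 ± 11.9 per kb. CCND1 at 31.8 ± 9.97 and TIGAR at 14.2 ± 5.47 per kb were the lowest. Of the D cyclins CCND3 prevailed, at 92.7 ± 2.65 percent of the 3 D cyclins per kb, and of the CIP/KIP inhibitors CDKN1B, at 92.2 ± 1.27 percent of the 3.

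With IRF2BP2 knockdown, CDKN1A, BTG2 and TIGAR rose and the other 7 genes did not pass the test. The 3 genes make 3 of 10 called higher, where 1.54 percent of all 12738 genes tested were called higher (limma on log2(normalized count + 1), Benjamini-Hochberg adjusted p under 0.05), and 0 of 10 called lower, where 0.251 percent of all genes were. The median log2 change of the 10 genes was 0.59, against -0.03 over all genes tested. Since the genes were picked with earlier results of these data known, the counts describe them and give no independent support. In bulk RNA, a change in the make-up of the cells and a change in message per cell cannot be told apart.

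CDKN1A, the CIP/KIP inhibitor p21, had 2563, 2579.7 and 2292 normalized counts in the IRF2BP2 shRNA 1 libraries and 1948, 2439.9 and 9778 in the IRF2BP2 shRNA 2 libraries, against 294 and 370.1 in the shRNA control. It lies on chromosome 6 from 36676460 to 36687339, plus strand (GENCODE annotation of GRCh38). All 6 knockdown libraries lay above both controls and above all 13 other libraries, and 1 of them, the library labelled IRF2BP2 shRNA 2 replicate 3, stood far above the other 5. The log2 change was 3.17 ± 0.51 (SE; limma adjusted p = 0.00789), and without that library it was 2.83 (adjusted p = 0.000665). Each hairpin alone gave a call, with 2.90 ± 0.56 for shRNA 1 (adjusted p = 0.0281) and 3.44 ± 0.56 for shRNA 2 (adjusted p = 0.00974), where 1.26 percent of all genes were called for shRNA 1 and 1.48 percent for shRNA 2. With replicate 3 of the hairpin left out, an alternative chosen after seeing the data, these became 2.96 (adjusted p = 0.0371) and 2.72 (adjusted p = 0.0124).

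BTG2, the antiproliferative p53 target, had 659, 774 and 675 normalized counts with shRNA 1 and 560.2, 612 and 794 with shRNA 2, against 263 and 219 in the shRNA control. These 6 values were the tightest of the 10 genes within the knockdown, with an SD of 0.193 on the log2 scale, and lay above all 13 other libraries. BTG2 thus changed by 1.49 ± 0.28 on the log2 scale (SE; adjusted p = 0.0175), with 1.54 ± 0.32 for shRNA 1 (adjusted p = 0.0374) and 1.43 ± 0.32 for shRNA 2 (adjusted p = 0.0484). Without replicate 3 of the hairpin, BTG2 kept its call for shRNA 1 (1.57, adjusted p = 0.0371) and lost it for shRNA 2 (1.28, adjusted p = 0.143). BTG2 lies on chromosome 1 from 203305491 to 203309602, plus strand.

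TIGAR, the fructose-bisphosphatase and the lowest of the 10 messages per kb in the controls, had 143, 194 and 302 normalized counts under shRNA 1 and 118, 127 and 199 under shRNA 2, against 55.7 and 38.4 in the shRNA control. These values rest on 125 to 420 reads in the knockdown libraries and 56 and 41 reads in the control. All 6 knockdown libraries again lay above the other 13, which reached 100.2 in a JDP2 knockout. Its log2 change was 1.86 ± 0.41 (SE; adjusted p = 0.0388), with 2.11 ± 0.44 for shRNA 1 (adjusted p = 0.0401) and 1.62 ± 0.44 for shRNA 2 (adjusted p = 0.109, not called). Without replicate 3 of the hairpin the call for shRNA 1 was lost too (1.83, adjusted p = 0.066). TIGAR lies on chromosome 12 from 4307763 to 4354593, plus strand, and 42.6 percent of its exon bases are shared with AC008012.1, a same-strand gene that also takes in 13.8 percent of the exon bases of its neighbour CCND2, so how its reads were assigned is uncertain.

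CDKN1A, BTG2 and TIGAR were also the 3 members that stood above every library outside the knockdown, a pattern that 3.69 percent of all genes showed. All 3 calls rest on both shRNA control libraries. Without replicate 1 or without replicate 3 of the control they were lost, as were most calls over all genes. The lone control is there assumed to vary like the knockdown libraries. For CDKN1A the change was then 3.01 (adjusted p = 0.193) and 3.34 (adjusted p = 0.0718). A block of replicate number ended the calls of both BTG2 and TIGAR, with values given further below. BTG2 also lost its call without IRF2BP2 shRNA 1 replicate 2 (adjusted p = 0.0547). TIGAR lost its call without IRF2BP2 shRNA 1 replicate 1 (adjusted p = 0.0597) or 2 (0.0954), without shRNA 2 replicate 2 (0.0622) or the library labelled shRNA 2 replicate 3 (0.0579), and with edgeR (0.0888), no filter (0.0839) or equal totals (0.0856). With both outlying knockdown libraries left out, adjusted p was 8.84e-06 for CDKN1A, 0.00166 for BTG2 and 0.00784 for TIGAR. Against all 5 control libraries, adjusted p was 6.36e-05 for CDKN1A, 0.000134 for BTG2 and 0.00318 for TIGAR.

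**Figure D1:**
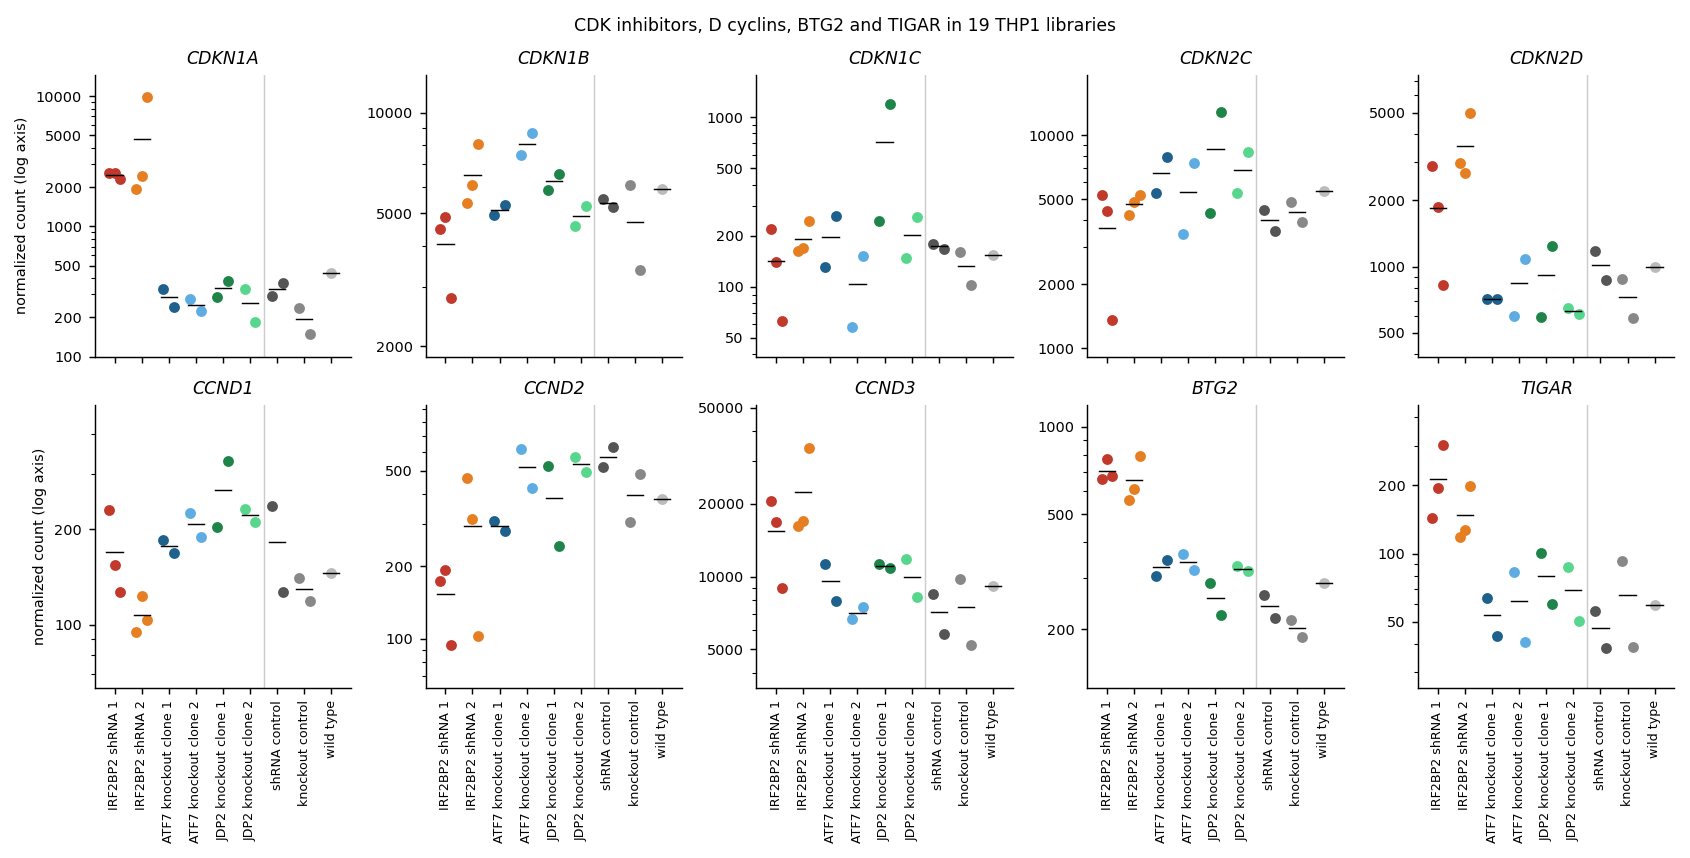
Normalized counts (log axis) of the 10 genes in all 19 libraries, by hairpin or clone and then by control group; each point is 1 library and each black line a group mean. CDKN1A, BTG2 and TIGAR sit above all other libraries in the 6 knockdown libraries, and CDKN1C and CDKN2C are highest in JDP2 knockout clone 1 replicate 2.

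The promoters of these 3 genes are shown because they rose together. RefSeq (GRCh38.p14) gave a promoter, 250 bases before to 50 after the start site, for 7 of the 10 genes, with no entry used for CDKN1C, CCND1 and CCND2. Capitals mark the GC box GGGCGG on either strand (CCGCCC on the other). The windows are chr6:36678464-36678763 for CDKN1A, chr1:203305269-203305568 for BTG2 and chr12:4320963-4321262 for TIGAR, all on the plus strand. The RefSeq starts of all 3 genes lie inside the genes of the GENCODE annotation, that of BTG2 close to its GENCODE start.
CDKN1A: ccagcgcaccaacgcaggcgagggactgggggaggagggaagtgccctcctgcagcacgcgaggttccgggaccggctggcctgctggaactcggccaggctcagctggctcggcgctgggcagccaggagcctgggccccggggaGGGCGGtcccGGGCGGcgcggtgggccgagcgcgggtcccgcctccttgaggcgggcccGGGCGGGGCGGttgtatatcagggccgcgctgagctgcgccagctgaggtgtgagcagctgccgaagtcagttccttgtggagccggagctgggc
BTG2: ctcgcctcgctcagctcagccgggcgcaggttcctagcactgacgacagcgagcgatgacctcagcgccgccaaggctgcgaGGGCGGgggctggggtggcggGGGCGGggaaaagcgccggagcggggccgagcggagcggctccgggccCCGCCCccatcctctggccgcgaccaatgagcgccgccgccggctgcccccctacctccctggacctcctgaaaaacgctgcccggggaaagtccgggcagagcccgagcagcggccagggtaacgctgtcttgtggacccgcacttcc
TIGAR: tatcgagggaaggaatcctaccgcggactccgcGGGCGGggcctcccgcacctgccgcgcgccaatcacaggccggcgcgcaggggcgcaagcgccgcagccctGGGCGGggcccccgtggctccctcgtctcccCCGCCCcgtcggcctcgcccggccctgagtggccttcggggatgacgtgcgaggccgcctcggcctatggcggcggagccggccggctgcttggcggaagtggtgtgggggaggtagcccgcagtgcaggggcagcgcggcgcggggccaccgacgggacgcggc

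The GC box, the DNA element bound by SP and KLF factors, was found in 6 of the 7 promoters, all but that of CDKN2C, and in 45.0 percent of all 35116 promoters of the same length. CDKN1A held 4 matches, of which the first began at base -104 and the last at base -40 from the start site, the last 2 of them sharing 1 base, and BTG2 and TIGAR held 3 each. The GC content was 74.3 percent for CDKN1A, 73.3 percent for BTG2 and 78.0 percent for TIGAR, against a median of 58.7 percent over all promoters. The cAMP response element TGACGTCA, to which ATF7 and JDP2 can bind, was in 0 of the 7 promoters (1.85 percent of all). TGANTCA, where N is any base, was in 0 of the 7 too (7.71 percent of all). It takes in the AP-1 element and further sequences. Both were searched on both strands. CACGTG, the E-box, was in CDKN2C only (7.26 percent of all). These letters describe the windows and say nothing of binding.

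Of the other CIP/KIP inhibitors, CDKN1B (p27) had 4495, 4888 and 2782 normalized counts with shRNA 1 and 5367, 6082 and 8069 with shRNA 2, against 5503 and 5211 in the shRNA control. The groups overlapped, and the log2 change was -0.09 ± 0.38 (SE; adjusted p = 0.940; 95% interval -0.92 to 0.74). CDKN1C (p57) had 220.1, 141 and 62.5 with shRNA 1 and 163, 169 and 245 with shRNA 2, against 179 and 167, and its change was -0.17 ± 0.46 (adjusted p = 0.903). Within the family, CDKN1A made up 35.1 ± 10.4 percent of the 3 messages per kb in knockdown libraries (24.4 to 51.9 percent, n = 6), against 4.76 ± 1.26 percent in the 5 controls (3.38 to 6.19 percent). These shares do not depend on the size factors. CDKN1B made up 62.7 ± 10 percent in the knockdown, against 92.2 ± 1.27 percent in the controls, while its own level overlapped with theirs.

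Neither INK4 inhibitor passed the test, though CDKN2D was higher in most knockdown libraries. CDKN2D (p19) had 2866, 1858 and 826 normalized counts with shRNA 1 and 2954, 2671 and 4968 with shRNA 2, against 1174 and 868 in the shRNA control. Of the 6 knockdown libraries, 5 lay above both controls, and IRF2BP2 shRNA 1 replicate 3 lay below them. The log2 change was 1.22 ± 0.52 (SE) and not called (adjusted p = 0.313), while without IRF2BP2 shRNA 1 replicate 3 it was 1.53 (adjusted p = 0.0200). CDKN2C (p18) had 5260.3, 4391 and 1364 with shRNA 1 and 4232, 4843 and 5255 with shRNA 2, against 4434 and 3565. Its groups overlapped, with a log2 change of -0.04 ± 0.47 (adjusted p = 0.984) and 0.23 when both outlying knockdown libraries were left out.

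Among the D cyclins, CCND3 was higher and CCND2 lower in every knockdown library than in both shRNA controls, though neither passed the test. CCND3, the main D cyclin of these cells, had 20571, 16826 and 8999.9 normalized counts with shRNA 1 and 16242, 17055 and 34137 with shRNA 2, against 8499 and 5785 in the shRNA control. CCND3 thus differed by 1.33 ± 0.46 on the log2 scale (SE; adjusted p = 0.199), and it passed without IRF2BP2 shRNA 1 replicate 3 (1.52, adjusted p = 0.0175). Of all genes, 11.1 percent lay above both controls in all 6 libraries and 11.2 percent below.

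CCND2 had 173, 194 and 94.1 normalized counts with shRNA 1 and 464, 314 and 103 with shRNA 2, against 519 and 625 in the shRNA control. All 6 libraries were below both controls, and the log2 change was -1.58 ± 0.54 (SE; adjusted p = 0.192). The other controls were lower, at 383 in wild type and 308 and 486 in the knockout control, and 2 of the 6 knockdown libraries then overlapped with them. CCND1, which is low in these cells, had 230.2, 154 and 126 with shRNA 1 and 94.8, 123 and 104 with shRNA 2, against 238 and 126 (change -0.39 ± 0.41, adjusted p = 0.722). Within the family, CCND3 made up 98 ± 0.79 percent of the 3 D cyclins per kb in the knockdown (97.1 to 99.4 percent), against 89.8 to 95.9 percent in the 5 controls and 89.6 to 95.9 percent in the 8 knockout libraries, so the 6 knockdown libraries lay above all 13 others. CCND2 made up 1.06 ± 0.7 percent in the knockdown, against 5 ± 2.32 percent in the controls.

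**Figure D2:**
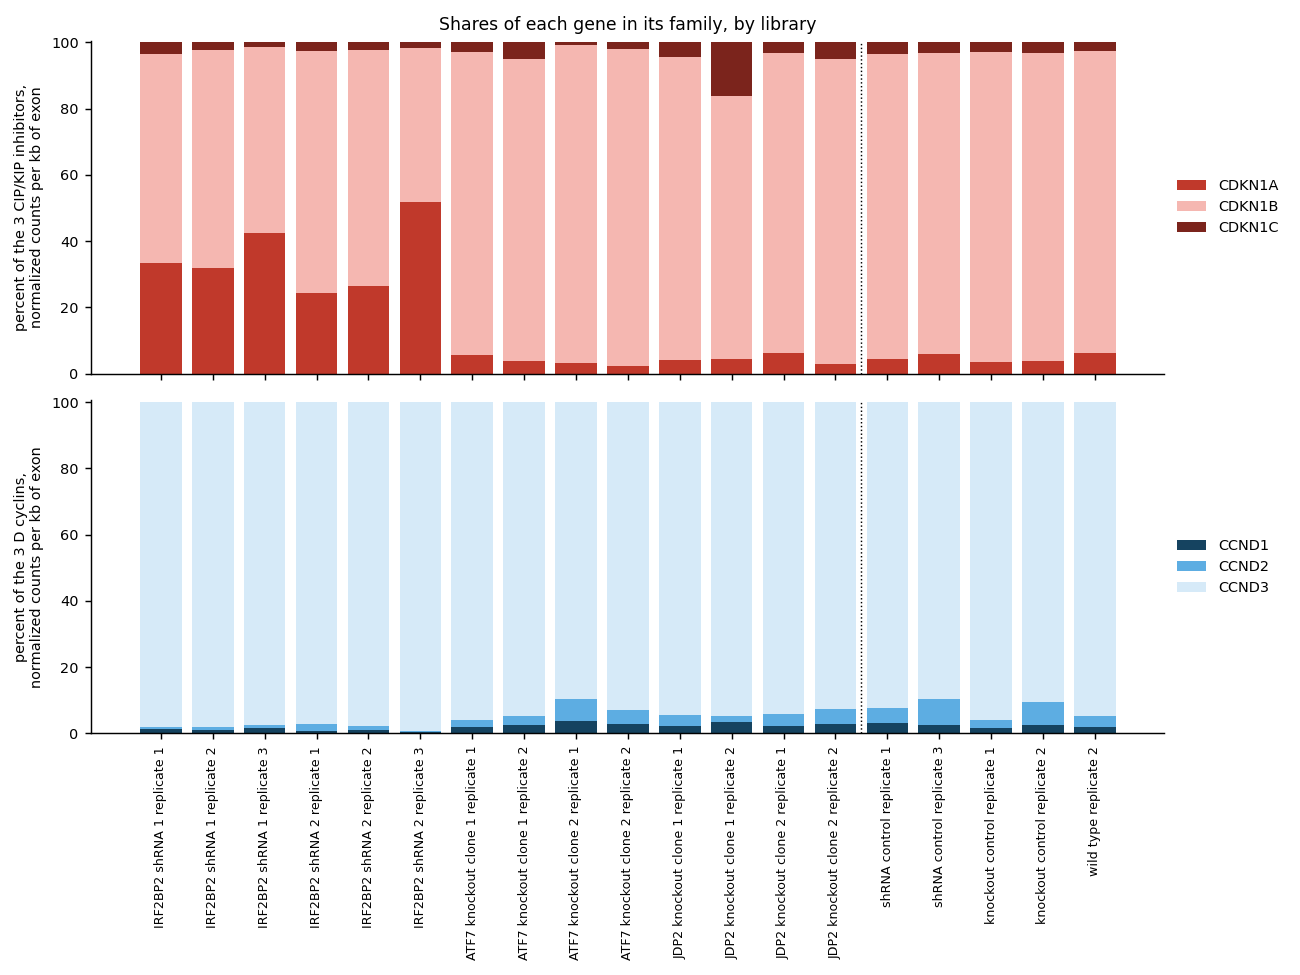
Share of each gene in the 3 CIP/KIP inhibitors (top) and the 3 D cyclins (bottom), in percent of normalized counts per kb of exon, 1 bar per library, controls right of the dotted line. CDKN1A takes 24.4 to 51.9 percent in the 6 knockdown libraries against 3.38 to 6.19 percent in the 5 controls, and CCND3 takes 97.1 to 99.4 against 89.8 to 95.9 percent.

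The hairpins were compared directly. Of the 10 genes 0 were called between shRNA 2 and shRNA 1 (limma, 1 at an unadjusted p under 0.05), as 0 of 12738 genes were (0 percent, 917 at an unadjusted p under 0.05). CDKN2D had the largest difference of the 10 genes, at 1.05 ± 0.44 (SE; adjusted p = 0.589; 95% interval 0.10 to 2.01), shRNA 2 over shRNA 1. CDKN1B was higher in all 3 shRNA 2 libraries than in the shRNA 1 libraries, as 6.0 percent of all genes were, and CCND1 was lower in all 3, as 7.31 percent were. Neither difference passed the test, with 0.70 ± 0.34 for CDKN1B (adjusted p = 0.589) and -0.63 ± 0.38 for CCND1 (adjusted p = 0.589).

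Other genes of the same pathways did not pass the limma test in the knockdown. Of 25 other genes of the G1 to S transition 24 were tested, 0 were called by limma, edgeR or DESeq2 (3 at an unadjusted p under 0.05 with each), and the median log2 change was -0.22, against -0.03 over all genes. CDKN2A, the INK4a and ARF gene, had 5416, 5121 and 1384 normalized counts with shRNA 1 and 5171, 6079 and 5066 with shRNA 2, against 8077 and 5791 in the shRNA control (-0.68 ± 0.50, adjusted p = 0.604). CDKN2B, which encodes p15, had 267, 342 and 336 with shRNA 1 and 225, 261 and 370.3 with shRNA 2, against 151 and 156 (0.94 ± 0.31, adjusted p = 0.168). All 6 knockdown libraries of CDKN2B lay above both shRNA controls, as 11.1 percent of all genes did, and above the wild type and knockout control libraries. ATF7 knockout clone 2 replicate 1, at 295, lay within their range.

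Of 29 other p53 target genes 26 were tested and 0 were called by limma (3 at an unadjusted p under 0.05) or edgeR and 1 by DESeq2 (FUCA1, which encodes a lysosomal fucosidase, higher). The list had a median log2 change of -0.08 and 10 of 26 changes were positive. Of 22 proliferation genes (replication and mitosis genes such as MKI67 and the MCM genes) 0 were called by limma, edgeR or DESeq2, with 0 at an unadjusted p under 0.05, the median change was -0.33 and 4 of 22 changes were positive. ITGAM (CD11b), a marker of monocyte maturation, rose in the same libraries, with 3855, 4493 and 3588 normalized counts with shRNA 1 and 4298, 3595 and 13513 with shRNA 2, against 484 and 594 (3.17 ± 0.46, adjusted p = 0.00533). Changes of all 8 myeloid markers were positive, and ITGAM was the 1 of 8 called by limma or edgeR, while DESeq2 called 4 of 8 higher (ITGAM, CSF1R, FCGR1A and LYZ). Of all 12738 genes tested, 528 were called higher by DESeq2, 196 by limma and 89 by edgeR. CSF1R, the receptor of the monocyte growth factor M-CSF, had 728, 610.3 and 520.2 normalized counts with shRNA 1 and 839.8, 1314 and 6221 with shRNA 2, against 156 and 143 in the shRNA control (2.84 ± 0.73, limma adjusted p = 0.0732). Its knockdown libraries all lay above both controls, as 11.1 percent of all genes did. FCGR1A, an Fc receptor of monocytes, differed by 1.30 ± 0.32 (limma adjusted p = 0.0693) and LYZ, which encodes lysozyme, by 1.72 ± 0.67 (limma adjusted p = 0.268). The summed myeloid markers were 44532 to 165709 in the knockdown, against 31709 and 36385 in the shRNA control and 96816 in wild type. PECAM1, an adhesion receptor of endothelial and myeloid cells, was called too (2.13 ± 0.44, adjusted p = 0.0284), and the 5 stromal and endothelial markers, nearly all of it PECAM1, summed to 2496 to 9471 in the knockdown against 885 and 1450 in the shRNA control. The 5 lymphoid markers summed to 5292 to 30872 in the knockdown, against 12453 and 17743 in the shRNA control, with overlap. PECAM1 also passed with DESeq2 but not with edgeR. The part of these markers in the changes of CDKN1A, BTG2 and TIGAR was not tested.

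**Figure D3:**
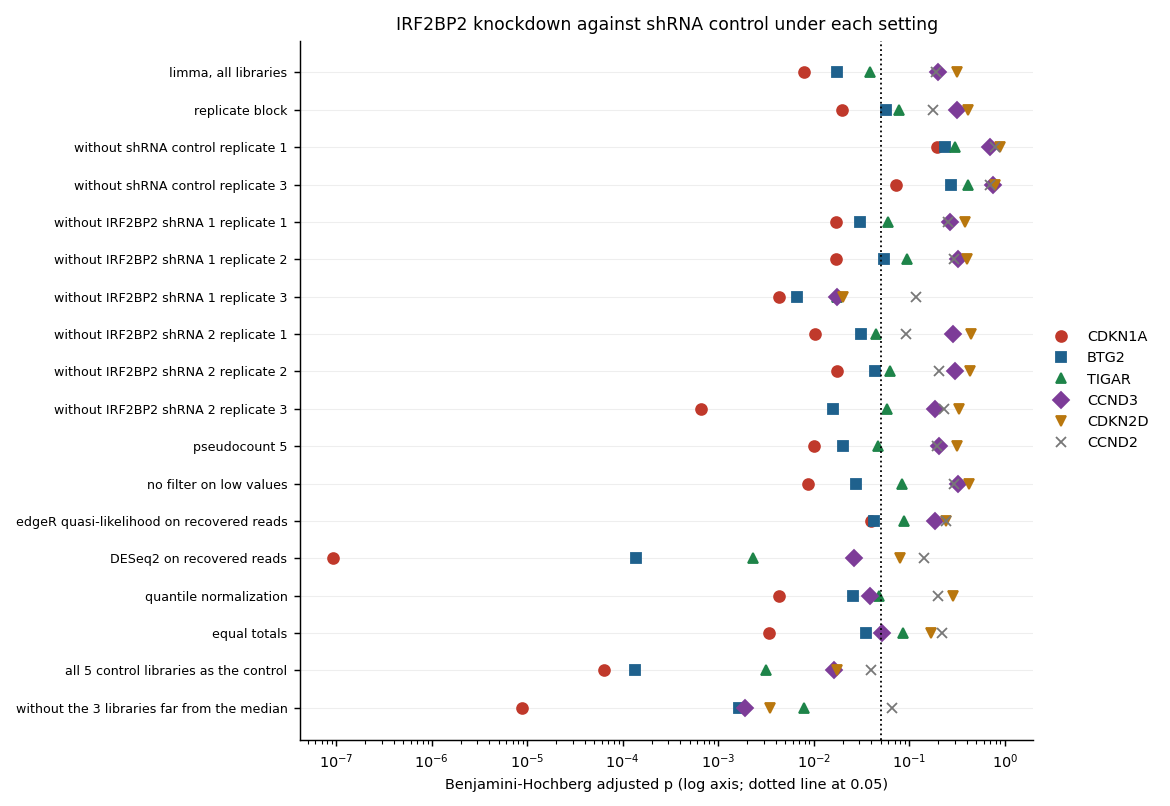
Adjusted p (log axis) of 6 genes for IRF2BP2 knockdown against shRNA control, 1 row per setting of the test or library left out; points left of the dotted line at 0.05 are called. CDKN1A is called in all settings but those without 1 of the shRNA control libraries (adjusted p = 0.193 and 0.0718), while CCND3, CDKN2D and CCND2 pass in some settings.

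With ATF7 knockout, 0 of 10 genes were called, where 0.25 percent of all 13208 genes were (33 genes by limma, 0 of them higher; 936 genes had an unadjusted p under 0.05). Of the 10 genes 1 had an unadjusted p under 0.05, and edgeR and DESeq2 also called 0 of 10. BTG2 came closest, with 306 and 347 normalized counts in clone 1 and 363 and 319 in clone 2, against 215 and 188 in the knockout control. The 4 knockout libraries lay above both of these controls and above all 5 control libraries, as 7.63 and 2.19 percent of all genes did. The log2 change was 0.72 ± 0.25 (SE; adjusted p = 0.458; unadjusted p = 0.0139; 95% interval 0.18 to 1.27).

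CCND1 was the other gene with no overlap, with 185 and 168 normalized counts in ATF7 knockout clone 1 and 226 and 189.7 in clone 2, against 140.2 and 119 in the knockout control (0.56 ± 0.29, adjusted p = 0.724). Of all genes, 7.63 percent lay above both knockout control libraries in all 4 knockout libraries. The shRNA control replicate 1, at 238, lay above all 4 knockout libraries for CCND1. CDKN1A had 333 and 239 in clone 1 and 278 and 222 in clone 2, against 237 and 149 in the knockout control and 435 in wild type, with overlap (0.49 ± 0.34, adjusted p = 0.790). CDKN1B was highest in clone 2, at 7475 and 8678 against 4929 and 5275 in clone 1, and 6064 and 3377 in the knockout control (0.50 ± 0.32, adjusted p = 0.780). The remaining 6 genes overlapped with the knockout control, with log2 changes between -0.11 for TIGAR and 0.39 for CDKN2C. The median over the 10 genes was 0.29, against 0.04 over all genes.

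With JDP2 knockout, 0 of 10 genes were called, where 0.674 percent of all genes were (89 genes by limma, 2 of them higher; 2217 genes had an unadjusted p under 0.05). Here too 1 of the 10 genes had an unadjusted p under 0.05, and edgeR and DESeq2 called 0 of 10. CCND1 came closest, with 203 and 330.1 normalized counts in clone 1 and 232 and 211 in clone 2, against 140.2 and 119 in the knockout control. The 4 libraries lay above both of these controls, as 13.5 percent of all genes did, and overlapped with shRNA control replicate 1 at 238. In log2 terms CCND1 differed by 0.88 ± 0.29 (SE; adjusted p = 0.205; 95% interval 0.26 to 1.51), and by 0.73 without clone 1 replicate 2. CCND1 lies on chromosome 11 from 69641087 to 69654474, plus strand, and 10.3 percent of its exon bases overlap LTO1 on the other strand. The strand setting is not given, so how reads from the overlap were assigned is uncertain.

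CDKN1C, the p57 inhibitor, had 245 and 1186 normalized counts in JDP2 knockout clone 1 and 147 and 257 in clone 2, against 161 and 103 in the knockout control. The value of clone 1 replicate 2 stood far above all other libraries. The difference was 1.33 ± 0.72 on the log2 scale (SE; adjusted p = 0.368), and 0.70 without that library (adjusted p = 0.602). CDKN2C had 4328 and 12841 in clone 1 and 5340.1 and 8363 in clone 2, against 4839 and 3925, and its highest value was in the same library (0.70 ± 0.44, adjusted p = 0.441, and 0.41 without it). CDKN2A was at 32952 in that library, against 5550 to 14192 in the other knockout-arm libraries. BTG2 lay at 289 and 224 in clone 1 and 330.2 and 316 in clone 2, against 215 and 188 in the knockout control. There was no overlap, and 13.5 percent of all genes likewise lay above both of these controls. The log2 change of BTG2 was 0.51 ± 0.25 (adjusted p = 0.325), and it was 0.28 with equal totals and 0.30 against all 5 controls.

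CCND3 had 11297 and 10899 normalized counts in JDP2 knockout clone 1 and 11772 and 8235 in clone 2, against 9762 and 5212 in the knockout control, with overlap (0.55 ± 0.31, adjusted p = 0.390). CDKN1A had 289 and 380.4 in clone 1 and 331 and 185 in clone 2, against 237 and 149 in the knockout control, also with overlap (0.61 ± 0.34, adjusted p = 0.376). The other 4 genes overlapped with the knockout control as well, with log2 changes between 0.04 for CDKN2D and 0.29 for CDKN1B. All 10 log2 changes were positive, with a median of 0.53 against 0.0049 over all genes, except that those of CDKN2D and CCND2 were negative against all 5 controls or with equal totals, and that of CDKN2D without clone 1 replicate 2. Without knockout control replicate 2 the changes of CDKN2D, CDKN1B and TIGAR were negative, and without its replicate 1 that of CCND2 was. Equal totals moved the median of all genes to -0.224.

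The other INK4 genes were also read in the knockouts. CDKN2A had 6619 and 11935 normalized counts in ATF7 clone 1 and 6004 and 14192 in clone 2, and 7258 and 32952 in JDP2 clone 1 and 8614 and 14073 in clone 2, against 7379 and 5549.9 in the knockout control. Its log2 change was 0.50 ± 0.54 with ATF7 (adjusted p = 0.866) and 1.03 ± 0.54 with JDP2 (adjusted p = 0.352). CDKN2B, with 114 to 295 in ATF7 and 142 to 222 in JDP2 knockouts against 197 and 122 in the knockout control, overlapped with the control. In the other lists limma and edgeR called 0 of 24 G1 to S genes, 0 of 26 p53 targets and 0 of 22 proliferation genes in either knockout. With limma, the counts at an unadjusted p under 0.05 were 1, 2 and 3 for ATF7 and 5, 2 and 3 for JDP2. DESeq2 called TFDP1, the partner of E2F factors, and CCNB1, a mitotic cyclin, lower in both knockouts, and FOXM1, a mitotic transcription factor, lower with JDP2. For TFDP1 the knockout control stood apart from all other controls: it had 8261 to 16838 normalized counts in the 8 knockout libraries, against 33997 and 31943 in the knockout control and 9571 to 11404 in the shRNA control and wild type. CCNB1 had 2130.2 to 3033 in the knockouts, against 4923 and 5818 in the knockout control and 2440 to 3103 in the other 3 controls. FOXM1 had 2014 to 3467 in JDP2 knockouts, against 5696 and 4888 in the knockout control and 3061 to 3855 in the other 3. The myeloid marker CD33 was lower with JDP2 by DESeq2 too, at 512 to 904 in the knockouts against 1658 and 1282 in the knockout control (limma -1.18 ± 0.28, adjusted p = 0.0957).

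Between JDP2 and ATF7 knockouts limma called 0 of the 10 genes (1 at an unadjusted p under 0.05), as it called 0 of 13208 genes (0 percent; 289 at an unadjusted p under 0.05). Between clone 2 and clone 1, limma called 0 of 10 genes for ATF7 (0.303 percent of all genes) and 0 of 10 for JDP2 (0.136 percent), and 0 of the 10 had an unadjusted p under 0.05 in either. In the p53 target list PHLDA3, a p53-induced inhibitor of AKT signalling, had 109 and 168 normalized counts in ATF7 clone 2, against 658 and 776 in clone 1 (-2.39 ± 0.41, adjusted p = 0.0492). Of the myeloid markers CD4 was called between the same clones, with 617 and 1200.4 in clone 2, against 4268 and 5752 in clone 1 (-2.52 ± 0.40, adjusted p = 0.0349).

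**Figure D4:**
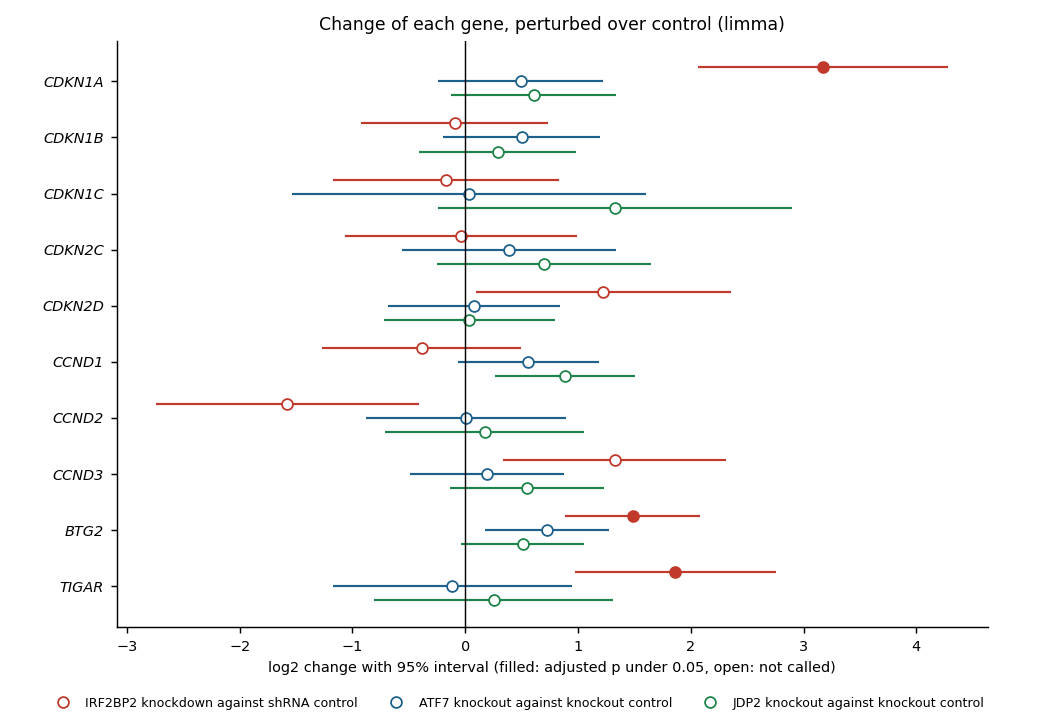
Log2 change of each gene with its 95% interval for IRF2BP2 knockdown over shRNA control, ATF7 knockout over knockout control and JDP2 knockout over knockout control; filled points passed an adjusted p of 0.05. CDKN1A at 3.17, BTG2 at 1.49 and TIGAR at 1.86 in the knockdown are the filled points.

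Whether the knockdown and the knockouts differed was tested as the difference of their changes, with the knockouts' changes averaged. CDKN1A was the 1 gene of 10 called, where 1.41 percent of 13057 genes were, at 2.62 ± 0.62 (SE; limma adjusted p = 0.0395), higher in the knockdown. By the same test ITGAM at 3.24 ± 0.71 (adjusted p = 0.0300), CSF1R at 4.21 ± 0.99 (adjusted p = 0.0395) and PECAM1 at 2.31 ± 0.49 (adjusted p = 0.0252) were also higher in the knockdown, 2 of 8 myeloid and 1 of 4 tested stromal and endothelial markers, and their part in the difference of CDKN1A was not tested. Without the library labelled IRF2BP2 shRNA 2 replicate 3 it was 2.28 (adjusted p = 0.0103). Without any 1 control library the call of CDKN1A was lost, as were most calls over all genes. It was also lost without ATF7 knockout clone 1 replicate 2 (limma adjusted p = 0.0569), ATF7 knockout clone 2 replicate 2 (0.0595) or JDP2 knockout clone 2 replicate 2 (0.0559). TIGAR differed by 1.79 ± 0.61 (adjusted p = 0.137), BTG2 by 0.87 ± 0.33 (adjusted p = 0.184) and CCND2 by -1.67 ± 0.69 (adjusted p = 0.220), none of them called. The arms were made with different vectors and controls, which cannot be told apart from the targeted genes.

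The authors' deposited tables set each perturbation against all 5 control libraries, which the 3 comparisons share. In the authors' deposited table for the knockdown, where 17.5 percent of 13048 genes had an adjusted p under 0.05, 6 of the 10 genes did. These were CDKN1A at 3.16 (SE 0.32), BTG2 at 1.49 (SE 0.16), TIGAR at 1.50 (SE 0.29), CDKN2D at 1.42 (SE 0.29), CCND3 at 1.21 (SE 0.25) and CCND2 at -0.92 (SE 0.32) on the log2 scale, per the authors' deposited table. Outside the 10 genes, CDKN2B passed there too, at 0.78 (SE 0.24, DESeq2 adjusted p = 0.0114). In the authors' deposited table for JDP2 knockout, CDKN1C passed at 1.24 (SE 0.39, adjusted p = 0.0202, DESeq2), where 12.1 percent of genes did. CDKN2A, outside the 10 genes, passed there as well, at 1.01 (SE 0.34, DESeq2 adjusted p = 0.0313). In the authors' deposited table for ATF7 knockout 0 of the 10 genes passed, and 0.315 percent of genes did.

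Genes whose pattern was most like that of a member were ranked by the root mean square difference of centred log2 values over the 19 libraries, among 11078 genes. For CDKN1A the nearest were FOS at 0.386, C5AR2 at 0.449 and FOSL2 at 0.458. For BTG2 they were COQ10B at 0.22, TMBIM1 at 0.246 and AP1S2 at 0.289. For CCND2 they were GPR63 at 0.402, BCAT1 at 0.416 and PSAT1 at 0.427, and for CCND1 PPP2CA at 0.262, HCCS at 0.27 and NDUFAF6 at 0.275. Among the members themselves CCND3 and BTG2 were nearest to each other at 0.451, CDKN1B and CDKN2C at 0.525, and CDKN1A stood farthest from the rest, with CDKN2D as its nearest at 1.01. These are descriptions over libraries that share controls and size factors.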

How the data were processed

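THP1 RNA was extracted on columns and turned into mRNA libraries, per the labels' protocols. The tools featureCounts and DESeq2 and the build hg38 are listed, with no version, in the submitters' processing notes. Which aligner, annotation and strand setting were used is not given in the sources used here. From the authors came a deposited table of normalized counts, a signal per gene and library (reads divided by a size factor), and 3 comparison tables. Each comparison table holds, per the file headers, a mean signal per gene, a log2 fold change, its standard error, a Wald score, the p-value and the adjusted p-value. Since fold change and Wald score have opposite signs in 100 percent of genes, directions were taken from the fold change. Read counts were recovered from the deposited table: 100 percent of 388037 values were whole reads within 0.01. The labels list 21 libraries, of which 2 that they call low quality (replicate 1 of wild type and replicate 2 of the shRNA control) were not analysed here. The highest correlation between any 2 libraries was 0.985 (log2).

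Values were analysed as log2(normalized count + 1), which understates changes of low genes. Genes with a mean of at least 10 in a fit were tested with limma 3.58.1 (moderated statistics with a trend, R 4.3.3). The p-values were adjusted by Benjamini-Hochberg over all genes tested in that fit, and a gene was called at an adjusted p under 0.05. Hairpins were pooled as 1 group against the shRNA control, and clones as 1 group per knockout in a separate fit with the knockout control; a fit of both arms gave the difference between knockdown and knockouts. The fits were tested on simulated data. Log2 changes of 1 put into the simulation were called in 7.6 percent of genes for the knockdown, 6.1 percent for ATF7 and 10.6 percent for JDP2. Log2 changes of 2 were called in 64.2 percent for the knockdown and 71.6 percent for either knockout. A gene that was not called may thus still have changed. Alternatives were a pseudocount of 5, no filter, edgeR 4.0.16 and DESeq2 1.42.0 on recovered reads, quantile and equal-total scaling, all 5 controls, leaving out libraries, and a block of replicate number. Levels per kb used the union of exons in GENCODE, and the sequences are from RefSeq.

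All 10 members were named with their values. Of other lists, called genes were named (up to 4 a comparison), with CDKN2A and CDKN2B always given; 1 further gene and 1 searched motif of that rule are not reported here. Members and lists were chosen with earlier results of these data known.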

Additional observations from a re-analysis of the deposited data

Results flagged for a closer look

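In 40 groups of 4 to 6 libraries of 1 gene (IRF2BP2 knockdown, ATF7 knockout, JDP2 knockout and all 5 controls, log2 scale), the highest or lowest library stood apart by Dixon's test 7 times, where chance gives about 1 in 20 groups. In the knockdown, CDKN1A was at 9778 normalized counts in the library labelled IRF2BP2 shRNA 2 replicate 3, with the nearest at 2579.7, and CDKN2C was at 1364 in IRF2BP2 shRNA 1 replicate 3, with the nearest at 4232. In JDP2 knockout clone 1 replicate 2, CDKN2D was high at 1236, with the nearest at 651, and CCND2 was low at 242, with the nearest at 496. Among the controls, knockout control replicate 2 was low for CDKN1B at 3377 (nearest 5211) and for CDKN1C at 103 (nearest 155), and shRNA control replicate 1 was high for CCND1 at 238 (nearest 145). Of the 7 values, 4 come from the 3 libraries in which many genes lie far from the median.

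The change of CDKN1A differed between the knockdown and the knockouts by 2.62 on the log2 scale (limma adjusted p = 0.0395), higher in 6 of 6 knockdown libraries than in all 8 knockout libraries. The call was lost without any 1 of the 4 control libraries of the fit, as were most calls over all genes.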

How the results depend on the processing

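Over 17 alternatives to the test of IRF2BP2 knockdown, CDKN1A was called in 15 (log2 change 2.83 to 3.42), BTG2 in 13 (1.36 to 1.62), TIGAR in 7, CCND3 in 5, CDKN2D in 3 and CCND2 in 1. The count of genes called, 3 of 10, became 6 with all 5 controls, 5 when the far libraries were left out, and 0 to 5 with 1 library left out. For the difference between knockdown and knockouts it was 0 to 1 with 1 library left out and 2 when the far libraries were left out (CDKN1A and CDKN2D), an alternative chosen after seeing the data; it was 0 throughout for the other comparisons. Over all genes, the knockdown gave 228 calls, against 124 with edgeR, 682 with DESeq2, 1561 with all 5 controls, 1251 without the far libraries and 11 to 609 with 1 library left out. ATF7 gave 33, against 19 without a filter, 223 with DESeq2, 3 with all 5 controls, 98 without the far libraries and 0 to 98 with 1 left out. JDP2 gave 89 (2 higher), against 53 without a filter, 526 with DESeq2 (151 higher), 919 with all 5 controls (501 higher) and 0 to 125 with 1 left out. Clones gave 40 for ATF7 (17 to 198) and 18 for JDP2 (12 to 266), and the difference between arms 184 (0 to 294; 616 without the far libraries).

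Same-numbered libraries deviated together in some pairs only (correlations over 0.1 in 3 of 7 knockdown and 5 of 10 knockout pairs, with 3 of 8 and 6 of 10 libraries closest to one of their own number), and the labels tie the numbers to no shared batch, so they were not taken as a pairing. Yet 25.1 percent of genes were higher and 23.1 percent lower in replicate 2 of all 4 knockout clones. Whether the numbers mark a batch was not tested, and the calls depend on this choice. With the replicate block, 1 gene was called in the knockdown (CDKN1A; adjusted p = 0.0567 for BTG2 and 0.0775 for TIGAR) and 2 in the difference between arms (CDKN1A and TIGAR), and calls over all genes became 74 for ATF7, 161 for JDP2, 93 between ATF7 clones and 666 between arms.

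Directions turned, in genes that were not called, as follows. In the knockdown, CDKN2C was 0.072 with edgeR, 0.0606 with DESeq2 and 0.23 without the far libraries, and CDKN1C was 0.0324 with all 5 controls. In ATF7 knockouts CDKN1C was -0.33 with quantile scaling, -0.0311 with equal totals and -0.188 with all 5 controls, CCND2 -0.0613 with equal totals and -0.215 with all 5 controls, and with these 5 controls CDKN1A was -0.072, CDKN2D -0.213 and TIGAR 0.0366. In JDP2 knockouts CDKN2D was -0.19 with equal totals, -0.26 with all 5 controls and -0.21 without the far library, and CCND2 was -0.0574 and -0.0474 in the first 2 of these. With 1 library left out, ranges that crossed 0 were, in the knockdown, -0.23 to 0.0788 (CDKN1B), -0.30 to 0.0876 (CDKN1C), -0.19 to 0.26 (CDKN2C) and -0.84 to 0.0674 (CCND1). In ATF7 knockouts they were -0.29 to 0.43 (CDKN1C), -0.22 to 0.38 (CDKN2D), -0.33 to 0.33 (CCND2), -0.26 to 0.65 (CCND3) and -0.73 to 0.50 (TIGAR), and in JDP2 knockouts -0.14 to 0.71 (CDKN1B), -0.26 to 0.33 (CDKN2D), -0.16 to 0.50 (CCND2) and -0.36 to 0.87 (TIGAR). Between knockouts they were -0.0212 to 0.32 (CDKN1A) and -0.29 to 0.13 (CDKN2D), and between hairpins -0.18 to 0.98 (CDKN1A) and -0.0146 to 0.96 (CDKN2C). Between ATF7 clones they were -0.42 to 0.0573 (CDKN1A), -0.92 to 0.18 (CDKN2C), -0.25 to 0.60 (CDKN2D), -0.0298 to 0.16 (BTG2) and -0.36 to 0.65 (TIGAR), and between JDP2 clones -0.94 to 0.63 (CDKN2C), -0.97 to 0.0936 (CDKN2D), -0.57 to 0.12 (CCND1), -0.43 to 0.0853 (CCND3) and -0.61 to 0.17 (TIGAR). The cause of these changes was not tested.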

Other observations

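Within each of the 4 knockout clones, CDKN1C, CDKN2C and CDKN1B were higher in replicate 2 than in replicate 1. The ratios for CDKN1C were 1.98 and 2.61 in ATF7 knockout clones 1 and 2 and 4.85 and 1.75 in JDP2 knockout clones 1 and 2, against 0.64 in the knockout control. For CDKN2C they were 1.48 and 2.15 in the ATF7 clones and 2.97 and 1.57 in the JDP2 clones, against 0.81 in the knockout control. CDKN2A, the INK4a and ARF gene, had 1.8 and 2.36 in the ATF7 clones and 4.54 and 1.63 in the JDP2 clones, against 0.75 in the knockout control. TIGAR and CCND2 were lower in replicate 2 in 4 of 4 clones, with ratios for TIGAR between 0.49 and 0.68, against 0.42 in the knockout control, and for CCND2 between 0.46 and 0.9, against 1.58. The same direction as CDKN1C, higher in replicate 2 of all 4 clones, was seen in 3309 of 13208 genes (25.1 percent), of which 2170 were lower in replicate 2 of the knockout control, so it is common in the table; 3052 genes (23.1 percent) were lower in replicate 2 of all 4 clones. The labels give no batch, and the cause was not tested.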
